A study of Medicago truncatula with 6 samples.

Results

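The NPF genes encode the nitrate transporter 1/peptide transporter family, membrane carriers that move nitrate and, depending on the member, peptides, hormones or other solutes. The members described here are the 79 Medtr gene identifiers that the study grouped as NPF in its supplementary list of transporter genes, all found among the 50897 transcripts of the deposited count files. They were chosen by identifier only, and 72 of the 79 carry an MtNPF name while 7 have none.

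The samples were root hairs of Medicago truncatula, wild type A17 (ecotype Jemalong A17), a model legume, taken from seedlings aged 5 days that had grown on Fahräeus medium. Roots had received water (control) or synthetic Nod factor (NF), the lipochitooligosaccharide signal by which rhizobia announce themselves to a legume root, and hairs were harvested 4 h or 20 h after NF (NF 4 h and NF 20 h). Each sample pooled the root hairs of 100 plants, stripped in liquid nitrogen from root segments without the tip, and by the study's methods the replicates of a treatment were independent biological repeats. Files of 5 of the 6 samples were used, 1 control library (replicate 2) and 2 libraries of each NF treatment, and control replicate 1 was not analysed here, so control values carry no SD and every comparison with the control rests on 1 library. The control title carries 4 h, so that time of water treatment and NF cannot be told apart at 20 h.

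In plants, NPF proteins are proton-coupled carriers, and the family is divided into 8 subfamilies, NPF1 to NPF8. NRT1.1 of Arabidopsis, a member of NPF6, both carries nitrate and senses it, and other Arabidopsis members load nitrate into the xylem (NPF7), release it from roots (NPF2), import abscisic acid (NPF4) or carry dipeptides (NPF8). In legumes the family is known for NIP/LATD (MtNPF1.7), a nitrate transporter of Medicago required for the meristems of nodules and lateral roots. Root hairs are the epidermal cells that take nitrate from the soil and that rhizobia enter.

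The libraries held between 39199411 and 47302574 read pairs counted to transcripts, and 3 pairs, the most that a count of 0 allows for, corresponded to between 0.0634 and 0.0765 CPM (read pairs counted to a transcript, scaled to the library total). As root hair markers 7 genes were chosen from the study's list of Arabidopsis root hair orthologs, and other genes of that list were not used as markers. All 7 were at or above 30.6 CPM in every library, while MtSUNN (Medtr4g070970), a receptor kinase gene of the stele, had between 0 and 7 pairs. MtENOD11 (Medtr3g415670), an early NF response gene, had 2 pairs in the control, 349 and 113 at NF 4 h, and 2122 and 2373 at NF 20 h. The 5 libraries thus carried these 7 root hair markers and the NF response that their labels state.

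Of the 79 members, 26 reached a mean of 1 CPM over the 5 libraries, 28 had pairs but stayed under 1 CPM, and 25 had no pair in any library. Among all transcripts listed, 33.5% reached 1 CPM and 40.9% had no pair, so the family's share at 1 CPM (32.9%) was close to that of the transcriptome. At a limit of 1 FPKM (CPM per kilobase of transcript) it was lower, 25.3% against 32.7% of all transcripts in the control. The shares were 25.3% against 32.3% at NF 4 h and 24.1% against 32.6% at NF 20 h. Transcripts under 600 bases made up 7.59% of the members and 36.2% of all listed. By treatment, 26 members averaged at least 1 CPM in the control, 25 in NF 4 h and 25 in NF 20 h, and 24 did so in all 3. In bulk root hairs a lower level can reflect fewer cells of a type or less RNA per cell, which cannot be told apart.

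The subfamilies differed in how many of their members were detected. NPF1, whose Arabidopsis members redistribute nitrate through the phloem, had 5 of 7 members at 1 CPM. NPF6, the subfamily of NRT1.1, had 3 of 7, and NPF4 had 5 of 14. NPF5, the largest subfamily here, had 3 of 23, NPF7 had 2 of 7, and NPF3 had 1 of 3. None of the 10 NPF2 members and not the single NPF8 member reached 1 CPM. All 7 members without an MtNPF name did, and how they entered the study's list is not stated in the sources used here, so nothing is read from that share.

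**Figure D1:**
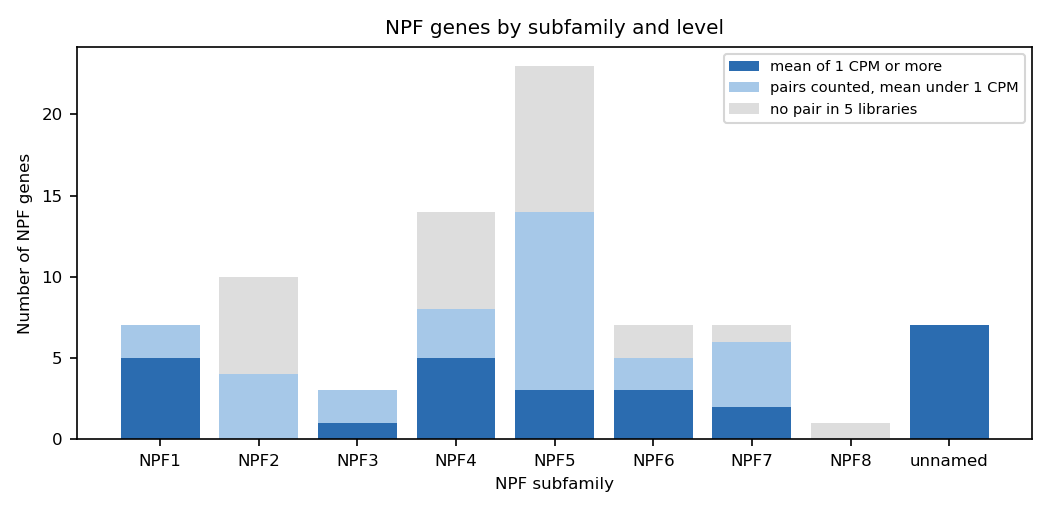
Number of NPF genes (vertical axis) in each subfamily (horizontal axis), split by level over the 5 libraries. NPF1 had 5 of 7 genes at a mean of 1 CPM or more, NPF2 0 of 10 and NPF5 3 of 23.

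Members without pairs included 6 with deposited transcripts of 189 to 504 bases, which are all the members shorter than 600 bases. In comparison, the 26 members at 1 CPM had transcripts of 1383 to 2679 bases. A further 6 of the 79 members had pairs but at most 3 in every library, so that 31 in all lay at or below the limit that a count of 0 allows. These included MtNPF6.8 (Medtr5g085850, also called MtNRT1.3), a nitrate transporter of the Medicago root, with 1 pair in the control, 1 and 1 at NF 4 h, and 0 and 2 at NF 20 h. Its response to NF could not be read at this depth. The identifier is that of the study's supplementary list, and the study's text gives another, Medtr5g093170, for MtNRT1.3, which was not analysed here, so that which gene these values stand for is uncertain.

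Levels were compared between genes as FPKM, which is CPM per kilobase of transcript. Summed over the 79 members, the level was 239.6 FPKM in the control, 313.9 and 293.6 in the NF 4 h libraries, and 317.7 and 265.3 in the NF 20 h libraries. All 4 NF libraries lay above the single control, while the ranges of the NF times overlapped. The same order of control against NF held for CPM, with 503.2 in the control and between 543.3 and 651.5 in the NF libraries. The subfamilies did not move alike. NPF4 members summed to 36.6 FPKM in the control, 87.1 and 84.1 at NF 4 h, and 61.9 and 55.9 at NF 20 h. NPF6 members summed to 73.0 in the control, 68.6 and 70.4 at NF 4 h, and 103 and 73.9 at NF 20 h. With 1 control library no test of the family sum was made.

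The family's transcripts were concentrated in few members. The 12 members with the highest mean FPKM held between 85.4% and 88.8% of the summed FPKM in each library, and the first 2 alone held between 36.0% and 46.1%. The highest was Medtr5g012290 (MtNPF6.7), with 55.7 FPKM in the control, 59.0 and 59.2 at NF 4 h, and 79.6 and 59.1 at NF 20 h. It belongs to the subfamily of NRT1.1, and 3 of the 4 NF libraries lay within 1.06-fold of the control. The NF 20 h replicate 1 library stood higher, at 1.43-fold. The fitted log2 difference from the control came to 0.08 (SE 0.21) at 4 h and 0.31 (SE 0.21) at 20 h, neither of them past the test (edgeR quasi-likelihood, adjusted p = 0.98 and 0.72).

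Medtr3g100980 (MtNPF4.7), of the subfamily that holds abscisic acid importers in Arabidopsis, came second. It had 30.4 FPKM in the control, 81.0 and 76.2 at NF 4 h, and 53.5 and 43.5 at NF 20 h. The 2 highest members therefore changed places with treatment, MtNPF6.7 leading in the control and at 20 h and MtNPF4.7 leading in both NF 4 h libraries. Below them came Medtr2g101560 (MtNPF1.3), with a lowest value of 19.3 FPKM and a highest of 28.1 over the 5 libraries. MtNPF4.7 exceeded MtNPF1.3 in 5 of 5 libraries with no overlap of their ranges, and this was the only gap between neighbours among the first 26 members. Every other pair of neighbours in that order overlapped between libraries.

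The remaining members among the 12 highest were Medtr4g033385, Medtr3g005010 (MtNPF5.25), Medtr4g101380 (MtNPF6.5), Medtr8g469310, Medtr4g019580, Medtr1g057460, Medtr1g009200 (NIP/LATD, MtNPF1.7), Medtr4g107530 and Medtr4g033395, with mean levels from 18.2 down to 7.97 FPKM. Among them are 6 of the 7 members without an MtNPF name. MtNPF5.25 varied least of these 9, its highest library being 1.15-fold above its lowest. It had 17.4 FPKM in the control, 16.5 and 15.3 at NF 4 h, and 17.7 and 17.0 at NF 20 h.

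**Figure D2:**
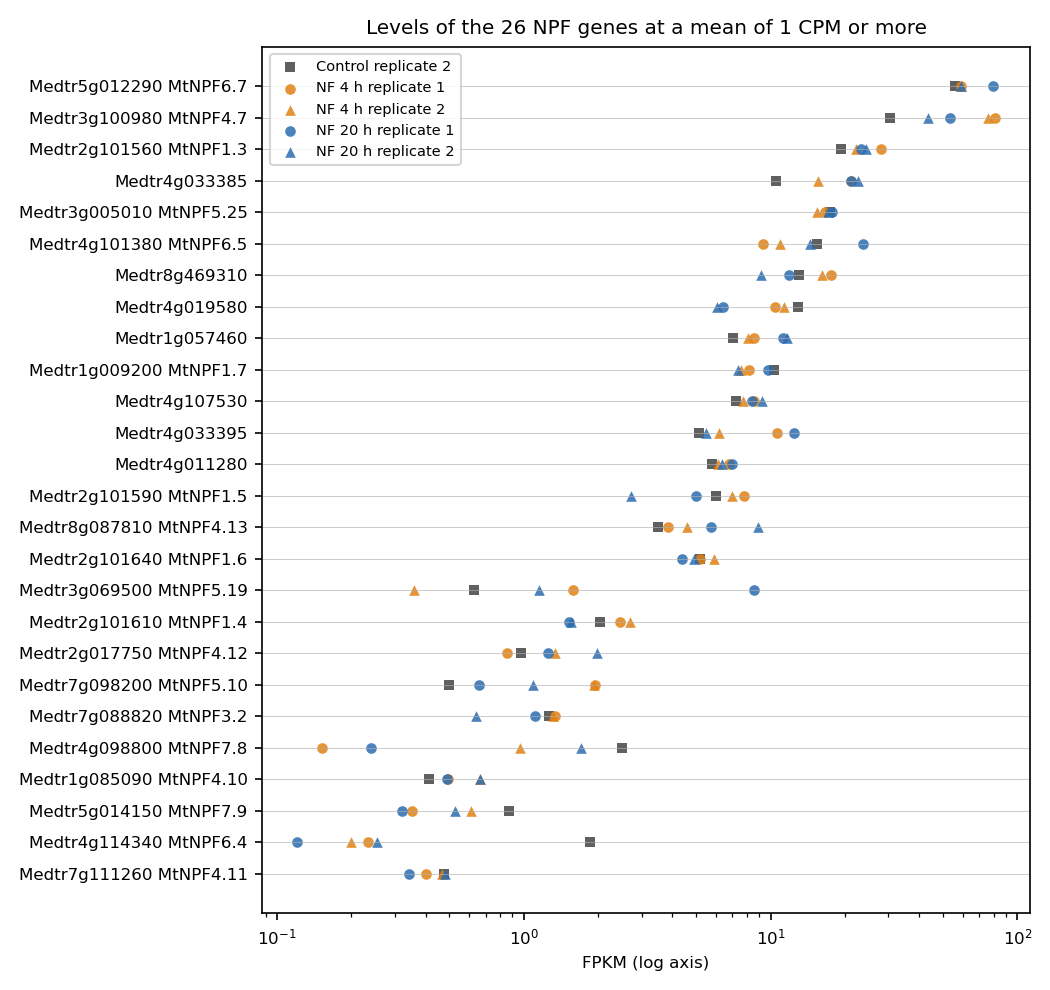
FPKM on a log axis for the 26 NPF genes at a mean of 1 CPM or more, ordered by mean FPKM, 1 point per library. MtNPF6.7 and MtNPF4.7 lie above all others, and MtNPF5.19, MtNPF7.8 and MtNPF6.4 spread over the widest range, each more than 15-fold.

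NIP/LATD (Medtr1g009200) had 10.3 FPKM in the control, 8.15 and 7.56 at NF 4 h, and 9.73 and 7.35 at NF 20 h. All 4 NF libraries were below the control, by 1.31-fold on average at 4 h and 1.21-fold at 20 h. The log2 differences were −0.39 (SE 0.21) and −0.27 (SE 0.22), and neither passed the test (edgeR, adjusted p = 0.74 and 0.77).

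For the comparison of each NF treatment with the control, differential expression was tested on the counts across 22091 transcripts with edgeR's quasi-likelihood test, with a call at a Benjamini-Hochberg adjusted p under 0.05, and both comparisons share the single control library. Of the 79 members, 39 passed the filter on low counts and entered the test. No member was called at NF 4 h, when 0.684% of all transcripts were called, and 5 of the 39 had an unadjusted p under 0.05, against 9.28% of all transcripts. At NF 4 h edgeR's exact test called 4 members, against 3.91% of all transcripts by that test, and DESeq2 called 3, against 2.66%. At NF 20 h 1 member was called, lower than the control, against 1.47% of all transcripts, and 6 of the 39 had an unadjusted p under 0.05, against 11.8%. The exact test and DESeq2 each called 3 members there, against 5.98% and 4.17% of all transcripts. No member was called between NF 20 h and NF 4 h, where 0.0498% of all transcripts were. There 10 of the 39 members had an unadjusted p under 0.05, against 10.7% of all transcripts, and edgeR's exact test and DESeq2 each called 5, against 4.16% and 3.6%.

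The called member was Medtr4g114340 (MtNPF6.4), of the NRT1.1 subfamily. It had 183 pairs in the control (4.01 CPM), 22 and 17 at NF 4 h (0.507 and 0.434 CPM), and 11 and 26 at NF 20 h (0.262 and 0.550 CPM). Every NF library lay far below the single control library, and the 4 NF libraries overlapped between the times. The transcript fell by 3.29 (SE 0.48) on the log2 scale at 20 h, 9.89-fold in mean CPM (edgeR, adjusted p = 0.049). At 4 h its mean CPM stood 8.53-fold below the control (log2 −3.08, SE 0.48, edgeR adjusted p = 0.077), short of the call. Without NF 20 h replicate 1 the 20 h value missed the threshold as well (log2 −2.86, edgeR adjusted p = 0.056), and the 4 h value passed it when either NF 20 h library was left out (edgeR adjusted p = 0.025 and 0.023).

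Medtr4g019580, a member without an MtNPF name that is annotated as a peptide/nitrate transporter, missed the call at 20 h narrowly. It had 28.4 CPM in the control, 22.9 and 25.1 at NF 4 h, and 14.2 and 13.3 at NF 20 h. The 3 treatments did not overlap, and both NF 20 h libraries were about level with each other. The log2 difference was −1.05 (SE 0.16, edgeR adjusted p = 0.050) at 20 h against the control, and the value passed the threshold with TMM factors (edgeR adjusted p = 0.046) and with DESeq2 size factors (edgeR adjusted p = 0.043). It was −0.25 (SE 0.16) at 4 h and −0.80 (SE 0.13) between the times, neither of them called (edgeR, adjusted p = 0.83 and 0.12).

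The members were also counted by whether both NF libraries lay at least 1.5-fold from the control, a description chosen after the calls were seen. At NF 4 h, 2 of the 26 members at 1 CPM were higher by that measure, against 4.12% of all transcripts at 1 CPM, and 2 were lower, against 3.07%. At NF 20 h, 4 were higher, against 5.02%, and 3 were lower, against 4.55%. Between NF 20 h and NF 4 h, 0 were higher, against 2.17%, and 3 were lower, against 1.72%. The median size of the log2 difference over the 26 members was 0.36 at 4 h, 0.59 at 20 h and 0.36 between the times, against 0.17, 0.20 and 0.15 over the 17061 transcripts at 1 CPM, whose median mean level was 15.6 CPM beside 14.2 CPM for the members. The signed medians were 0.17, 0.25 and 0.02 for the members and −0.02, 0.01 and 0.03 for all transcripts.

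**Figure D3:**
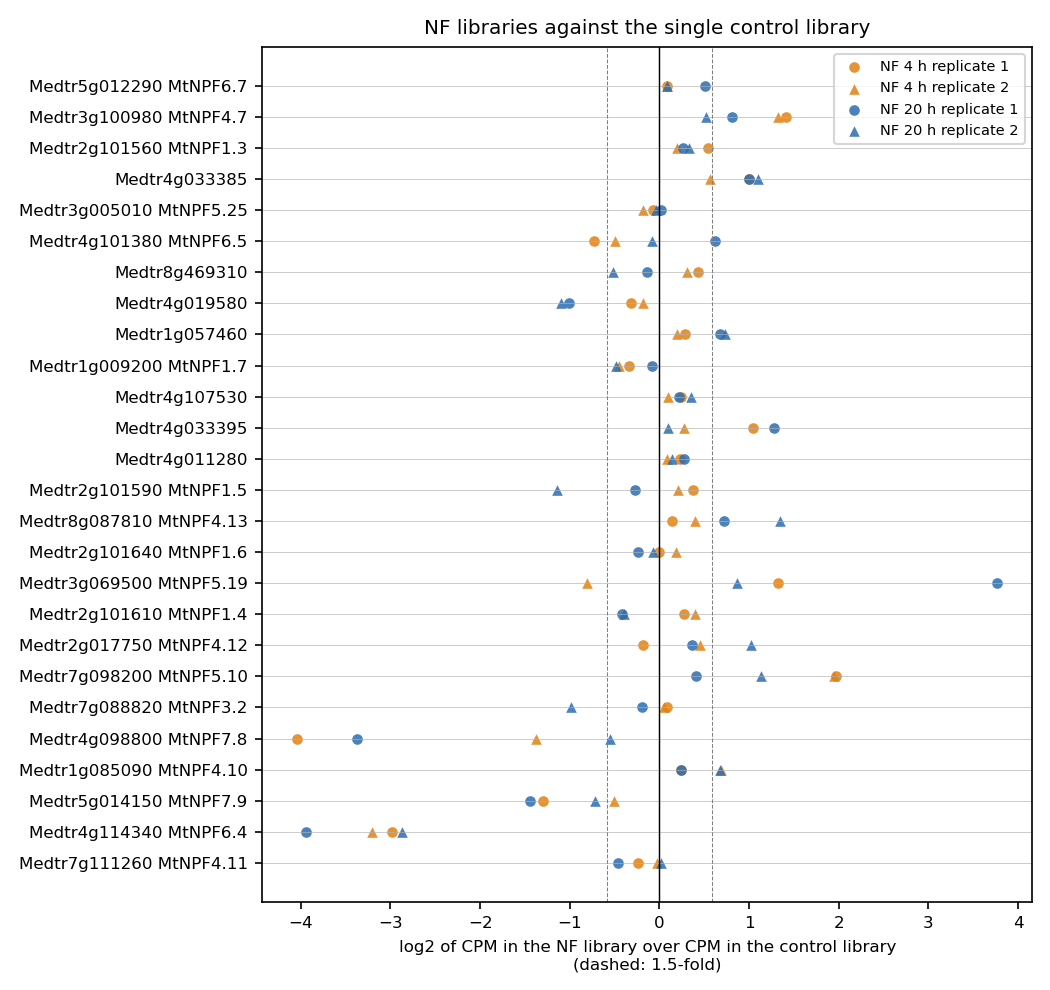
Log2 of the ratio of CPM in each NF library to the control library (horizontal axis) for the 26 NPF genes at a mean of 1 CPM or more, with dashed lines at 1.5-fold. MtNPF6.4 lies to the left in all 4 NF libraries, MtNPF4.7 and MtNPF5.10 to the right, and MtNPF5.19 and MtNPF7.8 separate by replicate.

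Members with higher levels at NF 4 h were led by Medtr7g098200 (MtNPF5.10) and MtNPF4.7. MtNPF5.10, annotated as a peptide transporter, had 0.899 CPM in the control, 3.53 and 3.47 at NF 4 h, and 1.19 and 1.97 at NF 20 h. Its NF 4 h libraries stood 3.92-fold and 3.86-fold above the control and did not overlap with those of NF 20 h. The log2 difference at 4 h was 1.96 (SE 0.43) and did not pass the test (edgeR, adjusted p = 0.18).

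In CPM, MtNPF4.7 had 59.0 in the control, 157 and 148 at NF 4 h, and 104 and 84.3 at NF 20 h. Control, NF 20 h and NF 4 h followed in that order without overlap. The log2 difference from the control came to 1.37 (SE 0.19) at 4 h and 0.67 (SE 0.19) at 20 h (edgeR, adjusted p = 0.062 and 0.21). The 4 h difference passed the threshold when only the NF 4 h and control libraries were fitted (edgeR adjusted p = 0.019). It also passed without the filter on low counts (edgeR adjusted p = 0.013).

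At NF 20 h the higher members by the 1.5-fold measure were Medtr8g087810 (MtNPF4.13), Medtr4g033385, Medtr1g057460 and Medtr3g069500 (MtNPF5.19). MtNPF4.13, of the same subfamily as MtNPF4.7, had 281 pairs in the control (6.16 CPM), 295 and 318 at NF 4 h, and 426 and 742 at NF 20 h (10.2 and 15.7 CPM). In CPM all 3 treatments kept apart, with the NF 4 h libraries closer to the control than to NF 20 h. The log2 difference at 20 h was 1.07 (SE 0.32, edgeR adjusted p = 0.26).

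Medtr1g057460 had 14.6 CPM in the control, 17.8 and 16.8 at NF 4 h, and 23.3 and 24.3 at NF 20 h. Its libraries too stood in the order control, NF 4 h, NF 20 h without overlap. The log2 difference was 0.70 (SE 0.16) at 20 h against the control and 0.46 (SE 0.13) between the times, neither called (edgeR, adjusted p = 0.14 and 0.26).

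**Figure D4:**
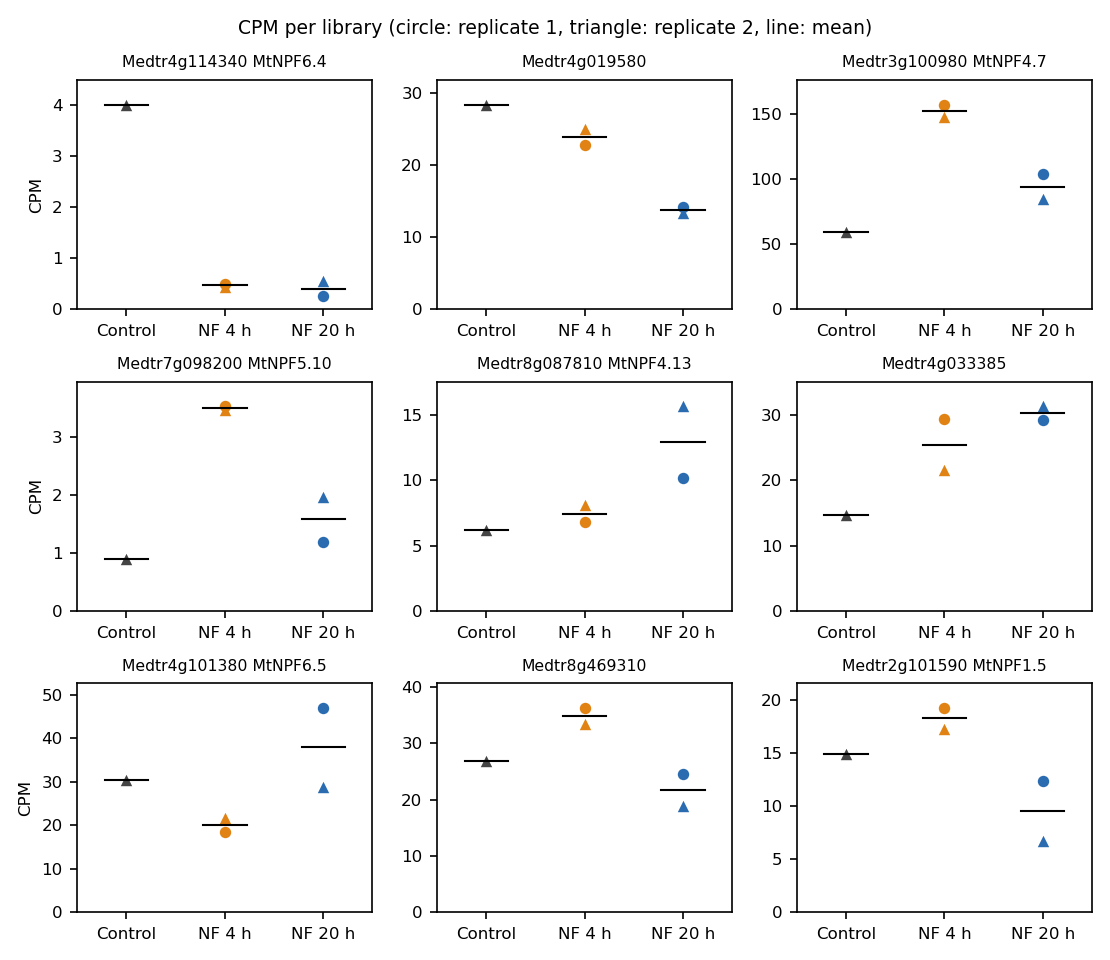
CPM in each library (vertical axis, from 0) for 9 NPF genes by treatment, with circles for replicate 1, triangles for replicate 2 and lines at the mean. MtNPF6.4 stands at 4.01 CPM in the control and at or below 0.550 CPM in all NF libraries. Both NF 4 h libraries lie below both NF 20 h libraries for MtNPF6.5 and above them for MtNPF1.5.

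Medtr4g033385 and Medtr4g033395, which neighbour each other by identifier on chromosome 4, form a pair whose counts are uncertain. The files counted a pair only where both of its reads mapped to 1 transcript without an equal hit elsewhere. In the 5 libraries the reads in counted pairs came to 69.8% of the single-read count for Medtr4g033385 and 60.4% for Medtr4g033395. This is a ratio of 2 deposited counts and not a share, and it reached 102% for MtNPF4.13. Its median was 92.4% over the 33 members with at least 100 single reads and 91.1% over all such transcripts. Of those transcripts 11.9% and 8.71% lay lower than these 2 members, so that reads may be divided or lost between like sequences, which was not tested.

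Medtr4g033385 had 14.6 CPM in the control, 29.3 and 21.6 at NF 4 h, and 29.2 and 31.3 at NF 20 h. Every NF library was above the control, and the log2 difference came to 0.80 (SE 0.23) at 4 h and 1.05 (SE 0.23) at 20 h (edgeR, adjusted p = 0.32 and 0.13). Medtr4g033395 had 455 pairs in the control, 892 and 472 at NF 4 h, and 1018 and 504 at NF 20 h. Replicate 1 of both NF treatments stood well above replicate 2 for Medtr4g033395, which Medtr4g033385 did not show at 20 h. The fitted log2 differences of Medtr4g033395 were 0.71 (SE 0.56) and 0.80 (SE 0.56).

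At least 1.5-fold below the control in both libraries of an NF time, besides MtNPF6.4 and Medtr4g019580, were Medtr4g098800 (MtNPF7.8) at 4 h and Medtr5g014150 (MtNPF7.9) at 20 h, the only NPF7 members at 1 CPM. MtNPF7.9 had 2.33 CPM in the control, 0.946 and 1.63 at NF 4 h, and 0.858 and 1.42 at NF 20 h. All 4 NF libraries were below the control by 1.80-fold on average at 4 h and 2.04-fold at 20 h, with replicate 2 above replicate 1 in both treatments. The log2 differences were −0.85 (SE 0.49) and −1.03 (SE 0.49), short of a call (edgeR, adjusted p = 0.76 and 0.53).

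MtNPF7.8 had 5.68 CPM in the control, 0.346 and 2.19 at NF 4 h, and 0.548 and 3.87 at NF 20 h. Both replicates lay below the control at both times, but replicate 1 was 6.34-fold below replicate 2 at 4 h and 7.06-fold below it at 20 h. The fitted log2 differences from the control were −2.17 (SE 1.23) and −1.35 (SE 1.21), less than 2 times their standard errors. The single control library is itself a replicate 2. With the replicate number added to the fit, the log2 differences of MtNPF7.8 were −1.35 at 4 h and −0.57 at 20 h.

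Medtr3g069500 (MtNPF5.19) showed the opposite order of replicates. The study used this gene in its RT-qPCR assays, and its Arabidopsis counterpart in the study's list of root hair orthologs is AT2G38100. The primers of that assay, the only sequences of a member in the sources used here, are shown because this gene had the widest spread of all members at 1 CPM, and they mark which transcript an independent measurement would read (5′ to 3′, no base emphasised).
MtNPF5.19 forward primer: atgggtttatgatggttctgtg
MtNPF5.19 reverse primer: cagcaagaaatccacctattagag

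MtNPF5.19 had 1.16 CPM in the control, 2.91 and 0.663 at NF 4 h, and 15.8 and 2.11 at NF 20 h. Both NF 20 h libraries stood above the control, by 13.6-fold in replicate 1 and 1.82-fold in replicate 2, while the NF 4 h libraries lay on either side of it. The log2 difference at 20 h was 2.94 (SE 1.46) and did not pass the test (edgeR, adjusted p = 0.56). Replicate 1 exceeded replicate 2 by 4.38-fold at 4 h and 7.48-fold at 20 h.

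Over the 26 members at 1 CPM, 2 differed by at least 2-fold between the NF 4 h replicates, against 2.83% of all transcripts at 1 CPM, and 4 did so between the NF 20 h replicates, against 4.31%. MtNPF5.19 and MtNPF7.8 were counted in both treatments, and Medtr4g033395 and MtNPF6.4 at 20 h only. Between replicates, 21 members differed by less than 1.5-fold at 4 h and 15 at 20 h. The same replicates differed in the root hair markers, of which 7 of 7 at 4 h and 6 of 7 at 20 h were higher in replicate 2. The most abundant of them was Medtr1g088110, a proline-rich protein gene, at 2630 CPM in replicate 1 and 3917 in replicate 2 at 4 h, and 2768 and 4145 at 20 h, and the part of these markers in the members' spread was not tested.

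**Figure D5:**
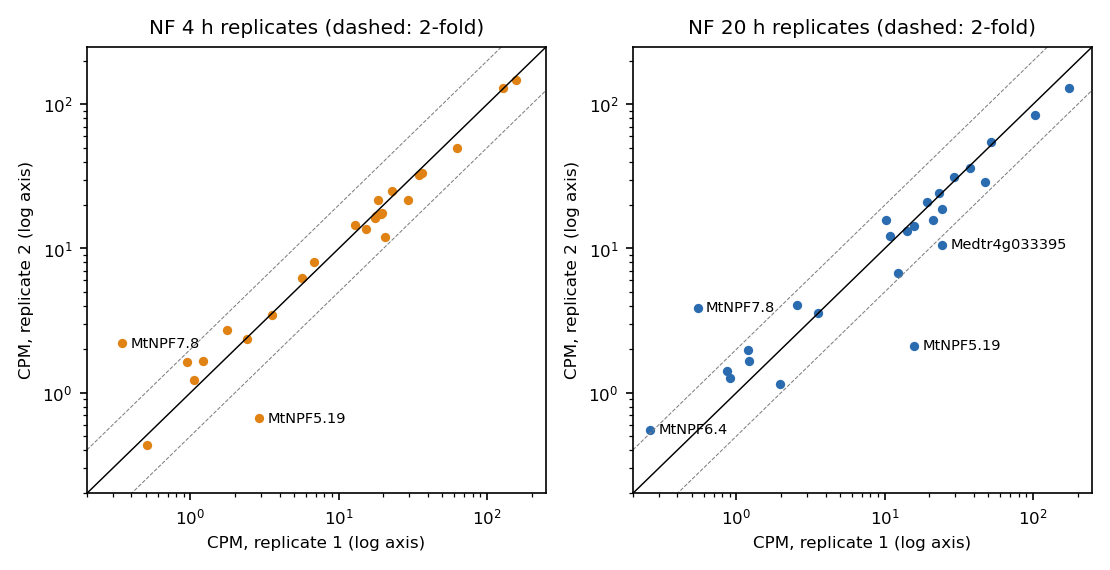
CPM of the 26 NPF genes at a mean of 1 CPM or more in replicate 1 (horizontal, log axis) and replicate 2 (vertical, log axis) of NF 4 h (left) and NF 20 h (right), with dashed lines at 2-fold. MtNPF7.8 lies above the band and MtNPF5.19 below it in both treatments.

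The comparison of NF 20 h with NF 4 h had 2 libraries on each side and no call among the 39 members. The differences with separated libraries included Medtr4g101380 (MtNPF6.5), which the study's ortholog list pairs with AT1G12110, the Arabidopsis NRT1.1 gene. The study's text describes another NPF6 member, Medtr5g012290 (MtNPF6.7), as a close homolog of NRT1.1. MtNPF6.5 had 30.5 CPM in the control, 18.4 and 21.7 at NF 4 h, and 47.1 and 28.8 at NF 20 h. Both NF 4 h libraries were below the control and below both NF 20 h libraries, which lay on either side of the control. The log2 difference between the times was 0.92 (SE 0.26, edgeR adjusted p = 0.26), and from the control it came to −0.61 (SE 0.30) at 4 h and 0.31 (SE 0.31) at 20 h.

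Medtr8g469310 had 27.0 CPM in the control, 36.4 and 33.4 at NF 4 h, and 24.5 and 18.9 at NF 20 h. The NF 4 h libraries lay above the control and the NF 20 h libraries below it. The log2 difference between the times was −0.69 (SE 0.17, edgeR adjusted p = 0.20).

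Medtr8g038880 (MtNPF5.17), a low member chosen after its values were seen, had the largest fitted difference between the times among the 39 members tested. It had 31 pairs in the control, 6 and 4 at NF 4 h, and 38 and 51 at NF 20 h. Both NF 4 h libraries lay under the control and both NF 20 h libraries above it, at a mean of 0.581 CPM over the 5 libraries. The log2 difference between the times was 3.01 (SE 0.45, edgeR adjusted p = 0.11) and that from the control at 4 h was −2.46 (SE 0.52, edgeR adjusted p = 0.17).

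The NPF1 members Medtr2g101560 to Medtr2g101650 neighbour each other by identifier on chromosome 2, and 4 of these 5 reached 1 CPM. Their summed level was 75.9 CPM in the control, 101 and 88.0 at NF 4 h, and 78.9 and 77.2 at NF 20 h. NF 4 h libraries stood above the others, and most of the sum was MtNPF1.3. MtNPF1.3 had 43.4 CPM in the control, 63.2 and 49.8 at NF 4 h, and 52.1 and 54.6 at NF 20 h, with log2 differences from the control of 0.38 (SE 0.19) and 0.30 (SE 0.19).

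Within this run Medtr2g101590 (MtNPF1.5) and Medtr2g101610 (MtNPF1.4) were lower at 20 h than at 4 h in both replicates. MtNPF1.5 had 14.9 CPM in the control, 19.3 and 17.2 at NF 4 h, and 12.4 and 6.74 at NF 20 h. MtNPF1.4 had 4.69 CPM in the control, 5.67 and 6.20 at NF 4 h, and 3.53 and 3.57 at NF 20 h. Both genes stood above the control at 4 h and below it at 20 h, with log2 differences between the times of −0.94 (SE 0.30) and −0.74 (SE 0.18), neither called (edgeR, adjusted p = 0.33 and 0.21). Medtr2g101640 (MtNPF1.6), next to them by identifier, ranged from 10.9 to 14.6 CPM.

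The NPF5 run on chromosome 7, Medtr7g098040 to Medtr7g098230, held 10 members, of which 1, MtNPF5.10, reached 1 CPM and 6 had no pair. Its neighbour Medtr7g098220 (MtNPF5.5) had 3 pairs in the control, 32 and 5 at NF 4 h, and 12 and 7 at NF 20 h. The control count was at the limit that a count of 0 allows, so no direction is read from these counts. The log2 differences of MtNPF5.5 from the control were 2.68 (SE 1.37) at 4 h and 1.67 (SE 1.41) at 20 h, neither called. Medtr7g098180 (MtNPF5.4) had 5 pairs in the control, 13 and 9 at NF 4 h, and 2 and 13 at NF 20 h. In this run the summed level was 1.07 CPM in the control, 4.59 and 3.83 at NF 4 h, and 1.52 and 2.39 at NF 20 h, most of it from MtNPF5.10. Chromosome 7 as a whole held 24 of the 79 members and 3 of the 26 at 1 CPM, whereas chromosome 4 held 15 and 8.

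The NPF2 members, whose Arabidopsis relatives include a carrier that excretes nitrate from roots, had few pairs, and none averaged 1 CPM. Medtr2g093180 (MtNPF2.2), annotated as nitrate excretion transporter 1, had 33 pairs in the control, 6 and 6 at NF 4 h, and 0 and 13 at NF 20 h. Medtr5g038060 (MtNPF2.11) had 21 pairs in the control, 1 and 4 at NF 4 h, and 0 and 8 at NF 20 h. For both genes the control library was the highest, and replicate 1 was at 0 at 20 h. Neither passed the test, with log2 differences at 20 h of −2.33 (SE 1.23) and −2.36 (SE 1.30), whose values depend on the fit because of the library at 0.

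Some members at 1 CPM kept to a narrow range. Medtr4g107530 had 16.5 CPM in the control, 19.5 and 17.6 at NF 4 h, and 19.2 and 21.0 at NF 20 h. Medtr4g011280 had 13.0 CPM in the control, 15.2 and 13.7 at NF 4 h, and 15.7 and 14.3 at NF 20 h. For both genes every NF library lay above the control, by at most 1.27-fold. The other 3 NPF4 members at 1 CPM, Medtr2g017750 (MtNPF4.12), Medtr1g085090 (MtNPF4.10) and Medtr7g111260 (MtNPF4.11), were low, with means of 2.62, 1.35 and 1.14 CPM and no call in any comparison.

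Of the 28 members with pairs but a mean under 1 CPM, 3 reached 1 CPM in some library. Medtr1g075440 (MtNPF5.13), which the study's ortholog list pairs with AT5G46040, had 51 pairs in the control, 7 and 61 at NF 4 h, and 31 and 45 at NF 20 h, so that its NF 4 h replicates stood 9.64-fold apart in CPM. Medtr2g005130 (MtNPF4.4) had 35 pairs in the control, 21 and 46 at NF 4 h, and 15 and 15 at NF 20 h. The third was MtNPF5.17. The study's ortholog list also holds Medtr2g093160 (MtNPF2.4), with 10 pairs in the control, 2 and 3 at NF 4 h, and 2 and 6 at NF 20 h. Medtr6g008690 (MtNPF5.24), the only member on chromosome 6, had 5 pairs in the control and 0 in all 4 NF libraries. Of these 28 members 13 entered the test and none was called, and MtNPF2.4 and MtNPF5.24 were not among them.

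Other genes were taken from the same list of the study, the 3 of its NRT2 section, high-affinity nitrate carriers, and the 4 of its NRT3 section. Of those 4, MtNAR2.1 and MtNAR2.2 are named as NAR2, the partner proteins of NRT2 carriers, and the other 2 are annotated as diphosphatases. All 7 were tested. At NF 4 h 2 were called higher, MtNRT2.1 and MtNAR2.2, when 0.684% of all transcripts were called. At NF 20 h 1 was called higher, against 1.47% of all transcripts, and none between the times, against 0.0498%. At NF 4 h 5 of the 7 had an unadjusted p under 0.05 (edgeR), against 9.28% of all transcripts. By the same measure 5 did so at NF 20 h, against 11.8%, and 4 between the times, against 10.7%. MtNRT2.1 (Medtr4g057890) had 34.9 CPM in the control, 143 and 119 at NF 4 h, and 76.3 and 78.1 at NF 20 h. MtNRT2.2 (Medtr4g057865) had 31.3 CPM in the control, 123 and 90.4 at NF 4 h, and 68.6 and 51.4 at NF 20 h. MtNAR2.1 (Medtr4g104730) had 152 CPM in the control, 478 and 387 at NF 4 h, and 282 and 270 at NF 20 h. Both were thus higher in all 4 NF libraries but not called. At NF 4 h their edgeR adjusted p was 0.087 for MtNRT2.2 and 0.058 for MtNAR2.1. MtNAR2.2 (Medtr4g104700), the gene called at both times, rose by 2.20 (SE 0.22) and 1.51 (SE 0.21) on the log2 scale (edgeR, adjusted p = 0.030 and 0.042). MtNRT2.3 (Medtr8g069775) had 11.6 CPM in the control, 6.69 and 6.91 at NF 4 h, and 5.39 and 7.57 at NF 20 h, all 4 NF libraries below the control. Its log2 differences of −0.76 (SE 0.25) and −0.83 (SE 0.25) did not pass the test (edgeR, adjusted p = 0.41 and 0.26).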

How the data were processed

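RNA-seq was carried out by the authors on root hair libraries (TruSeq, polyA selection, paired-end), and reads were mapped with Bowtie2 (2.0 per the labels) to the predicted transcriptome Mt4.0v1. Per the file headers, reads with an equally good second hit were removed, and the deposited count per transcript is the number of pairs with both reads on that transcript. Between 72.1% and 73.0% of parsed pairs were counted, and 6.31% to 7.28% of reads were removed as multiple hits. The deposited files also give single-read counts, used for 1 alternative.

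CPM and FPKM were computed from the pair counts and library totals. Counts were tested with edgeR 4.0.16 (R 4.3.3, quasi-likelihood, all 5 libraries, library-size scaling, filterByExpr, 2 residual degrees of freedom) and with DESeq2 1.42.0 as an alternative, after a test on simulated data. Standard errors are the fold change divided by the root of F. Counting limits cover counting error only.

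The members and lists were chosen with earlier results of these data known. Named members were those called, the 12 highest by FPKM, the 4 largest separated increases and decreases per comparison at 1 CPM or more, those the study names, the pair Medtr4g033385/Medtr4g033395 and 2 runs of neighbours. MtNPF3.2, MtNPF5.17, MtNPF2.2 and MtNPF2.11 were added after their values were seen. Also described, though not picked by these rules, are Medtr4g011280, MtNPF2.3, MtNPF2.4, MtNPF4.4, MtNPF4.10, MtNPF4.11, MtNPF4.12, MtNPF5.13 and MtNPF5.24. Of the 79 identifiers, 0 matched the RefSeq gene table, so no coordinates are given.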

Additional observations from a re-analysis of the deposited data

Results flagged for a closer look

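In 5 members both NF 4 h libraries lay on one side of the control library and both NF 20 h libraries on the other. The share of all transcripts with this pattern was not computed, so nothing about the family is read from the count. The ratio of mean CPM at NF 20 h to that at NF 4 h was 0.523 for Medtr2g101590 (MtNPF1.5), 0.598 for Medtr2g101610 (MtNPF1.4), 0.622 for Medtr8g469310 and 0.657 for Medtr7g088820 (MtNPF3.2), which were above the control at 4 h and below it at 20 h. Medtr8g038880 (MtNPF5.17) was below the control at 4 h and above it at 20 h, with a ratio of 8.25. The difference between the times, which is the contrast of NF 20 h with NF 4 h, passed the test for none of the 5 (edgeR, adjusted p from 0.11 to 0.67), and a control of 1 library makes the side on which a value falls uncertain.

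MtNPF3.2, annotated as nitrate transporter 1, had 103 pairs in the control, 104 and 92 at NF 4 h, and 83 and 54 at NF 20 h, so its NF 4 h libraries (2.40 and 2.35 CPM) were close to the control (2.26 CPM).

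Medtr2g093650 (MtNPF2.3) had 6 single reads in NF 20 h replicate 2, where no pair was counted. It had 1 pair in the control, 2 and 6 at NF 4 h, and 5 in NF 20 h replicate 1.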

How the results depend on the processing

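The count of members called moved with the test, and so did the share of all transcripts called. In what follows the share of all transcripts called by the same fit is in brackets. Against 0 members called at NF 4 h, edgeR's exact test called 4 of 39 (3.91%) and DESeq2 3 of 36 (2.66%). The fit without a filter on low counts called 2 of 54 (1.46%) and the fit of only the groups compared 2 of 39 (1.68%). Against 1 at NF 20 h, the exact test called 3 of 39 (5.98%) and DESeq2 3 of 36 (4.17%). TMM factors gave 2 of 39 (1.66%), DESeq2 size factors 2 of 39 (1.8%) and no filter 2 of 54 (2.38%). An adjusted p under 0.01 gave 0. Against 0 between the times, the exact test called 5 of 39 (4.16%), DESeq2 5 of 30 (3.6%) and no filter 1 of 54 (1.02%). Leaving out 1 NF library at a time gave 0 to 2 members at NF 4 h (2 without NF 20 h replicate 1 and 2 without NF 20 h replicate 2), 0 to 2 at NF 20 h (2 without NF 4 h replicate 1, 0 without NF 20 h replicate 1) and 0 between the times. Single reads in place of pairs, added after seeing the data, gave 0, 1 and 0 of 47 members (0.609%, 1.32% and 0.00395%). The cause of these moves was not tested.

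With a replicate block, which leaves 1 residual degree of freedom, 5 members were called at NF 4 h, 8 at NF 20 h and 11 between the times, of 39 tested, while 7.47%, 12.2% and 8.84% of all transcripts were called in the same fit. The differences between replicates correlated between the NF times with r = 0.505 over the 22091 genes tested (genes do not stand for replicates). The labels tie the numbers to no shared batch. Whether libraries of the same number shared any handling is not stated in the sources used here and was not tested. Under the replicate block 2 directions turned at NF 4 h, MtNPF5.19 (log2 −1.15) and MtNPF6.7 (log2 −0.018).

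Of 660 values of named members under alternatives, 611 kept direction and side of the threshold, 32 passed it, 1 lost it and 16 turned. MtNPF5.25 at NF 20 h was 0.0015 with TMM factors and 0.00079 with DESeq2 size factors. With 1 NF library left out, log2 values that turned ranged from −0.81 to 1.32 for MtNPF5.19 at NF 4 h, from −0.087 to 0.62 for MtNPF6.5 and from −0.033 to 0.022 for MtNPF5.25 at NF 20 h. Between the times they ranged from −0.62 to 0.57 for Medtr4g033395, −0.84 to 0.22 for MtNPF6.4, −1.20 to 2.67 for MtNPF7.8, −0.58 to 0.27 for MtNPF7.9, −0.00027 to 0.43 for MtNPF6.7, −0.24 to 0.10 for MtNPF1.3 and −0.10 to 0.31 for NIP/LATD.

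The summed level of 503.2 CPM in the control, 624.7 at NF 4 h and 597.4 at NF 20 h was 239.6, 303.8 and 291.5 in FPKM, and 381.4, 495.6 and 446.0 CPM without MtNPF6.7. That last sum still held MtNPF4.7, which had 59.0 CPM in the control, a mean of 152 at NF 4 h and 94.0 at NF 20 h. The sum without MtNPF4.7 was not computed, so a rise across the family is not read from these sums. Counts of members detected stayed within 1.5-fold at 0.5 CPM, 2 CPM, an FPKM of 1 and in replicate 2 alone. At an FPKM of 1, however, the members' share fell below that of all transcripts, with 25.3% against 32.7% in the control. Of the members at least 1.5-fold from the control, a limit of 2-fold kept 2 of the 2 higher and 2 of the 2 lower at NF 4 h. At NF 20 h it kept 0 of the 4 higher and 2 of the 3 lower. The shares of all transcripts at 2-fold were not computed.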
